A study of Mus musculus with 3 samples.

Results

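Ccr2 positive MHC class II high macrophages are cells of the heart that carry the chemokine receptor Ccr2 together with high levels of the MHC class II chains. They were chosen by a fixed gate on their transcripts. A cell barcode needed at least 1000 UMIs (unique molecular identifiers, each standing for 1 captured transcript), at least 200 genes and at most 10% mitochondrial UMIs. It then needed the complement genes C1qa, C1qb and C1qc at 0.3% of its UMIs or more, which defines the C1q-gated cells, at least 1 UMI of Ccr2, and H2-Aa, H2-Ab1, H2-Eb1 and Cd74 at 1% or more in sum. No UMI of the resident macrophage genes Timd4 and Lyve1, and at most 1 UMI of Ear2 and Fn1, genes of another monocyte-derived macrophage class, were allowed. The gate found 324 cells in the control diet library (CD), 280 in the high fat diet library (HFD) and 190 in the Western diet library (WD), 794 of 10171 cells past the quality filters. These cells are called members below.

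The hearts were from mice of wild type genotype, 32 to 34 weeks old, on the 3 diets, and their cells were sorted as CD45, F4/80 and CD11b positive after digestion with collagenase II. Mouse strain, sex, diet composition and the number of mice behind a library are not given in the labels. Each diet is 1 library, so no comparison below has a replicate, and none carries a test. Fewer transcripts per cell and a changed mix of cells within the gate cannot be told apart in the summed values.

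Ccr2 is the receptor for the chemokine Ccl2 and brings monocytes from blood into tissue. In the adult heart, macrophages with Ccr2 are known to be replaced from blood monocytes, while those with Timd4, Lyve1 and Folr2 largely renew in place. MHC class II molecules are pairs of an alpha and a beta chain that present peptides to helper T cells. The invariant chain Cd74 guards the groove until H2-DM loads the peptide, and the coactivator Ciita switches the set of genes on by joining factors on the X and Y boxes of their promoters.

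The promoters of the class II genes are shown because their transcripts are the ones that mark these cells and because H2-DMb1, outside the gate, was higher in members too. The windows run from 250 bases before to 50 bases after the start of the gene, from RefSeq on build GRCm38.p6, and the capitals mark matches to the motifs searched on both strands. The motifs were ATTGG (the core of the Y box, CCAAT on the other strand), CTGATTGG (a longer Y box that holds the core) and AGNAACNGA (the core of the X1 box). Among 32851 promoters of the same length, 37.4%, 4.10% and 5.35% held them. The H2-Aa window lies at chr17:34287774-34288073 on the minus strand, the H2-Eb1 window at chr17:34305617-34305916 and the H2-DMb1 window at chr17:34152941-34153240, both on the plus strand.
H2-Aa: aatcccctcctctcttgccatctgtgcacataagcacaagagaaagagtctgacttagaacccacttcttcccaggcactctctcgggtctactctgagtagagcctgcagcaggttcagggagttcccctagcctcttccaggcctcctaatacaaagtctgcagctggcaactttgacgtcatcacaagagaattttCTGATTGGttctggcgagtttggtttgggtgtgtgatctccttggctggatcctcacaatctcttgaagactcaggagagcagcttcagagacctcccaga
H2-Eb1: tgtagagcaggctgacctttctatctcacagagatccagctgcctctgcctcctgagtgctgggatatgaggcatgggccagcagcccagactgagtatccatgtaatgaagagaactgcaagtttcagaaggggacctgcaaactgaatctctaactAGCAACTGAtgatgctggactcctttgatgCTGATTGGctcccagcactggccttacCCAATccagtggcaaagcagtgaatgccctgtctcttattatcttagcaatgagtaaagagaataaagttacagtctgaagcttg
H2-DMb1: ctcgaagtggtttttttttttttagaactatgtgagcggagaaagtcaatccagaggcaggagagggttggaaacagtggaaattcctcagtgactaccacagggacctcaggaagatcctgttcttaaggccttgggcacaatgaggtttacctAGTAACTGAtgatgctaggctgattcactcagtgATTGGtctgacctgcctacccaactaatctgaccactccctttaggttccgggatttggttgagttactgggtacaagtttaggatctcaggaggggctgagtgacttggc
H2-Aa holds the longer Y box 51 bases before its start and no match to the X1 letters. H2-Eb1 holds the X1 letters 92 bases and the longer Y box 62 bases before its start, and a further Y core 35 bases before it. H2-DMb1 holds the X1 letters 95 bases and the Y core 61 bases before its start. The distance from the X1 match to the next Y core was 33 bases in H2-Eb1, 33 in H2-Eb2 and 34 in H2-DMb1. The other class II windows lacked this order. For H2-DMa, window 1 held none of the motifs and window 2 a Y core alone, 198 bases before its start. H2-Ob and H2-DMb2 held a Y core without the X1 letters. In H2-Oa the X1 letters came after the Y box, 4 bases before the start. The letters AGNAACNGA also occur in the window of Ccr2, where no Y core was found. A match describes letters and not a bound factor.

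Members made up 14.1% (12.7 to 15.6) of the 2293 C1q-gated cells in CD, 14% (12.5 to 15.6) of 2002 in HFD and 5.11% (4.43 to 5.87) of 3717 in WD, with exact 95% Clopper-Pearson intervals that cover counting error only. CD and HFD differed by less than these intervals, and WD lay below both. Under other limits, given under the dependence on processing, HFD lay above or below CD. The gate asks for the presence of one gene and the absence of others, so depth moves it in both directions. Members had a median of 3964 UMIs in CD, 3432 in HFD and 12729.5 in WD. With each cell thinned to 1000 UMIs before gating, the shares were 10.7% (9.44 to 12), 9.69% (8.43 to 11.1) and 2.97% (2.44 to 3.57), in the same order. The cells were not the same ones in WD, where 41.7% of the thinned members were members before thinning, against 74.7% in CD and 84.1% in HFD.

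**Figure D1:**
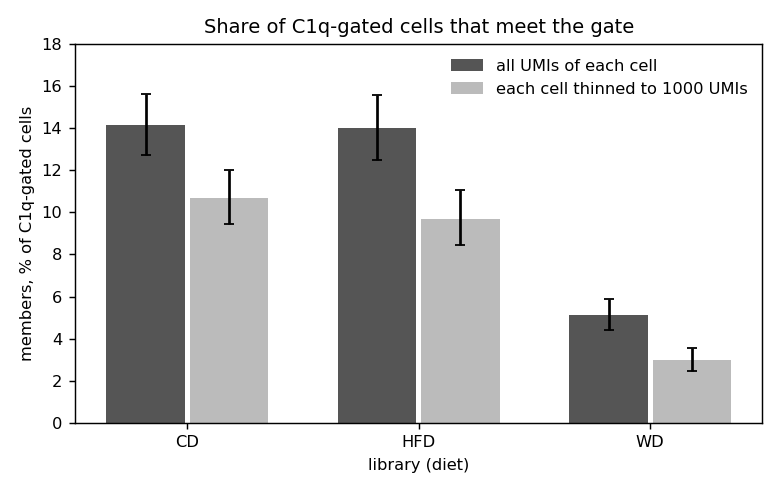
Members as a percentage of the C1q-gated cells of each library (x axis), from all UMIs (dark bars) and after thinning each cell to 1000 UMIs (light bars). Bars start at 0, and error bars are exact 95% Clopper-Pearson intervals. CD and HFD stand at 14.1% and 14% and WD at 5.11%.

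The WD library differed from the others in more than diet. Per the file headers it was processed with software version 7.2.0 and the others with 3.0.1, and only 92 (1.34%) of the WD barcodes are also listed for CD and HFD, although the labels name one kit for all. In members, the median log2 ratio of WD to CD ran from -0.80 over the quartile of genes with the shortest introns to 2.06 over the quartile with the longest, and in the other C1q-gated cells from -0.92 to 1.97. The same medians for HFD against CD stayed between -0.09 and -0.04 in members. Diet and these differences cannot be told apart for WD, so WD is read within its own library. The libraries shared 10 barcodes (HFD and CD) and 1 barcode (WD and CD) among C1q-gated cells and none among members.

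Of the conditions, Ccr2 removed the most cells: 639 CD, 399 HFD and 814 WD cells carried it. Ccr2 and MHC class II went together. The 1% class II level was met by 95.6%, 97.2% and 85.9% of cells with Ccr2 in CD, HFD and WD. Of C1q-gated cells without a Ccr2 UMI, 48.9%, 66.7% and 53.3% met it. Only 7, 6 and 8 cells met every condition but that of class II. Cells that missed the gate by Timd4 or Lyve1 alone numbered 140, 47 and 289, and those that missed it by Ear2 and Fn1 alone 86, 46 and 54. Cells that differed from members in having no Ccr2 UMI alone numbered 417, 653 and 507, and they are used below as the nearest comparison.

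Members sat well inside the class II limit and close to the Ccr2 limit, and in WD many also lay near the C1q limit. In CD, 98 members (30.2%) had a single Ccr2 UMI, in HFD 84 (30%) and in WD 47 (24.7%), while 75, 66 and 72 had 5 or more. The class II share of members ranged from 1.21% to 24.2% in CD, 2.46% to 20.2% in HFD and 1.09% to 8.37% in WD. Its median was 9.31%, 11.8% and 4.26%, against 1.65%, 4.43% and 1.51% in the other C1q-gated cells. Just inside 1% to 1.5% were 2, 0 and 5 members, and 4, 5 and 1 cells that met the other conditions lay just outside, at 0.5% to 1%. C1q at 0.3% to 0.6% was found in 6 members of CD, 10 of HFD and 66 of WD. Just below the C1q limit, at 0.15% to 0.3%, were 3, 5 and 26 cells that met the other conditions. These values follow from the gate and are a description.

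**Figure D2:**
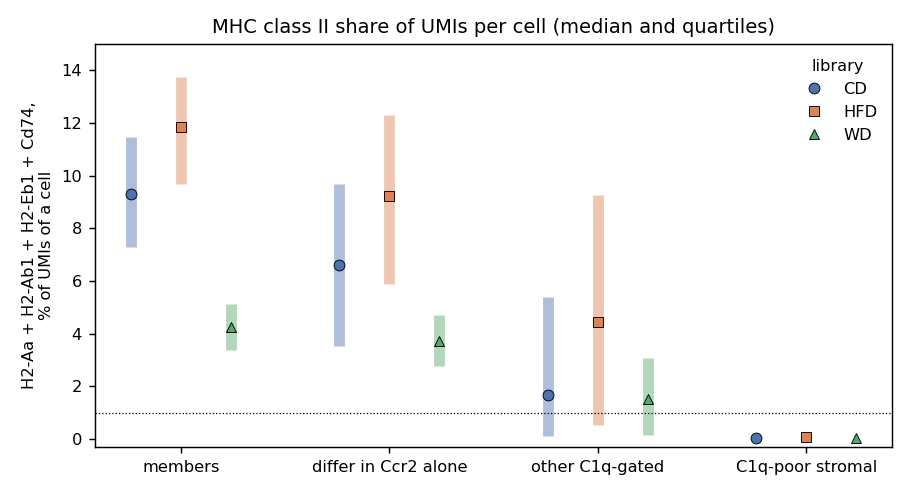
Share of a cell's UMIs from H2-Aa, H2-Ab1, H2-Eb1 and Cd74 (y axis, percent) in 4 sets of cells (x axis) of the CD, HFD and WD libraries. Points are medians over cells, bars run from the lower to the upper quartile, and the dotted line is the 1% limit of the gate. Members have the highest medians in each library, cells that differ in Ccr2 alone come next, and the medians of C1q-poor cells with endothelial or fibroblast genes stay below 0.1%.

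In each library the genes of the gate followed its limits. Ccr2 lies at chr9:124101950-124113557 (plus strand) and H2-Aa at chr17:34282744-34287823 (minus strand) on GRCm38, by the GENCODE annotation. Levels are given as CPM, the UMIs of a gene summed over a set of cells and scaled to 1000000 UMIs of the set. Ccr2 stood at 749.7 against 114 CPM in CD, 876 against 75.8 in HFD and 378 against 76.2 in WD, members against other C1q-gated cells. H2-Aa, the class II alpha chain, stood at 14406 against 5093 CPM in CD, 18932 against 9023 in HFD and 7869 against 3448 in WD. Cd74 stood at 47198 against 16744 CPM in CD, 61366 against 27414 in HFD and 19404 against 8869 in WD. C1qa, used only as a lower limit, was 1.16, 1.43 and 1.19 times lower in members of CD, HFD and WD. Cd52, a surface glycoprotein of leukocytes that was named as a marker and not used in the gate, stood at 1554 against 832 CPM in CD, 1917 against 907 in HFD and 976 against 467 in WD, higher by 1.87-fold (1.78 to 1.96) in CD, 2.11-fold (2.01 to 2.23) in HFD, 2.09-fold (2.01 to 2.18) in WD.

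Against the other C1q-gated cells, more genes were lower than higher in members. Of 8893 genes with at least 30 UMIs over both sets in each library, 128 (1.44%) were at least 1.5-fold higher in members in all 3 libraries and 380 (4.27%) at least 1.5-fold lower. The lists that follow are read against these shares. Without the WD library, 202 genes were higher and 676 lower in both of CD and HFD. Scaled without gate, mitochondrial and ribosomal genes, 172 were higher and 296 lower in all 3 libraries. Against cells that differ in Ccr2 alone, the counts were 72 and 85. Timd4 or Lyve1, which keep a cell out of the gate, were found in 55%, 44.1% and 76.8% of C1q-gated cells in CD, HFD and WD. The excess of lower genes thus describes the choice as well as the cells.

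Ccl8 led the genes that were lower in members. Ccl8, a ligand of several CC chemokine receptors, stood at 33.6 against 954 CPM in CD, 33.6 against 795 in HFD and 4.35 against 84.5 in WD, members against other cells. It was lower by 28.4-fold (21.4 to 38.7) in CD, 23.6-fold (17 to 34) in HFD, 19.4-fold (10.8 to 38.9) in WD, with overlapping intervals in the 3 libraries. Folr2, the folate receptor beta that marks tissue-resident macrophages, stood at 156 against 1227 CPM in CD, 82.7 against 1271 in HFD and 23.7 against 504 in WD, lower by 7.88-fold (6.89 to 9.05) in CD, 15.4-fold (12.4 to 19.3) in HFD, 21.2-fold (16.5 to 27.8) in WD. A UMI of Folr2 was found in 12%, 7.50% and 4.74% of members thinned to 1000 UMIs, in 58.6%, 52.5% and 32.8% of the other cells, and in 2.02%, 5.69% and 0% of C1q-poor cells with endothelial or fibroblast genes, which should lack it. The 36 stromal cells of WD allow a share of up to 9.74% by the exact interval. In HFD the share in members, with an interval of 4.70% to 11.2%, could not be told from the background in stromal cells. Fcna, a soluble lectin of the ficolin family, was at 7.85 against 136 CPM in CD, 1.92 against 131 in HFD and 0.396 against 56.3 in WD. Colec12, a scavenger receptor with a collagen stalk, was 15, 27.6 and 17.8 times lower and Ednrb, the endothelin receptor type B, 19, 14.6 and 46.4 times lower in CD, HFD and WD. Cd209f, a C-type lectin, stood at 32.1 against 278 CPM in CD and 17.3 against 428 in HFD, and had no UMI in WD members against 11.3 CPM, at least 9.52-fold lower by a floor of 3 counts over the set. Slc10a6, a carrier of sulfated steroids, was lower by 8.27, 7.30 and 29 fold, and Gprc5c, an orphan receptor, by 24.7, 7.11 and 7.23 fold. Ltc4s, the leukotriene C4 synthase, was lower by 6.86, 9.65 and 16.2 fold, and Cp, the copper-binding ferroxidase ceruloplasmin, by 7.65, 27.3 and 6.40 fold.

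All 18 measured genes of the resident macrophage list outside the gate were at least 1.5-fold lower in members in all 3 libraries, with median log2 ratios of -2.03, -2.50 and -2.41 in CD, HFD and WD, beside -0.07, -0.14 and -0.03 over all genes measured. The gate removes cells with 2 genes of this list, so the count describes the choice as well as the cells. Of 12 scavenging and efferocytosis genes, 6 were lower and 1 was higher. Cd163, the haptoglobin and hemoglobin receptor, stood at 65.7 against 257 CPM in CD, 50.9 against 245 in HFD and 139 against 688 in WD, and Gas6, the bridge between dying cells and TAM receptors, at 141 against 555 CPM in CD, 104 against 566 in HFD and 32.8 against 249 in WD. Mrc1, the mannose receptor, was 2.33, 2.71 and 2.30 times lower. Of the iron and heme genes, 4 of 8 were lower: Slc40a1, the iron exporter ferroportin, by 6.19, 18.2 and 9.75 fold, Blvrb, a biliverdin reductase, by 2.38, 3.21 and 2.48 fold and Hmox1, heme oxygenase 1, by 1.79, 2.59 and 3.23 fold.

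Complement genes beyond C1q were lower where they differed: 4 of 9 passed 1.5-fold downward and 0 upward. C4b, the complement component 4, stood at 13.6 against 196 CPM in CD, 4.81 against 99.3 in HFD and 3.56 against 93.3 in WD, lower by 14.4-fold (9.23 to 24.1) in CD, 20.7-fold (8.80 to 63.9) in HFD, 26.2-fold (13.8 to 57.3) in WD. Of 13 growth factor and matrix genes 5 were lower, among them Mmp9, a gelatinase, at 7.14 against 41 CPM in CD, 3.84 against 83.1 in HFD and 3.96 against 27.6 in WD. Mmp14, the membrane-bound collagenase, was the one higher, by 2.67-fold (1.46 to 4.68) in CD, 2.31-fold (1.11 to 4.57) in HFD, 3.15-fold (2.47 to 3.97) in WD. Igf1, a growth factor of resident macrophages, stood at 149 against 333 CPM in CD, 76.9 against 298 in HFD and 85.5 against 176 in WD. Among 14 transcription factors Maf, Bhlhe41 and Rxra were lower, Maf by 2.15, 2.09 and 1.95 fold. Of 16 lipid-associated genes, Ctsl, Cd63 and Apoe were lower. Apoe, the lipid carrier and among the most abundant transcripts of these cells, stood at 12979 against 23573 CPM in CD, 11476 against 27140.5 in HFD and 4977 against 10157 in WD. The cell cycle inhibitor gene Cdkn2a stood at 5.0 against 44 CPM in CD, 5.77 against 41.6 in HFD and 1.19 against 9.12 in WD.

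Ciita, the class II coactivator, stood at 95.7 against 29.5 CPM in CD, 175 against 62.4 in HFD and 174 against 63.8 in WD, higher by 3.24-fold (2.62 to 3.99) in CD, 2.80-fold (2.33 to 3.36) in HFD, 2.73-fold (2.47 to 3.01) in WD. It was found in 9.57%, 16.1% and 14.2% of members thinned to 1000 UMIs, 2.23%, 5.46% and 4.85% of the other cells and 0.505%, 0.271% and 0% of the C1q-poor stromal cells. H2-DMb1, a chain of the peptide loader H2-DM, stood at 960.3 against 379.6 CPM in CD, 1481 against 662 in HFD and 470.4 against 209 in WD, and H2-DMa, its partner, at 1205 against 555 CPM in CD, 1659.7 against 872 in HFD and 511 against 252 in WD. With these, 2 of 4 class II chains outside the gate were higher, at medians of 1.12, 0.77 and 1.03. Beyond Ciita, the other 9 of 10 regulators and loading enzymes passed 1.5-fold in all 3 libraries in neither direction. The same held for all 9 genes of MHC class I presentation and all 10 of costimulation. The 3 class II genes whose promoters are printed above were thus higher together, H2-Aa by 2.83, 2.10 and 2.28, H2-Eb1 by 3.09, 2.29 and 2.60 and H2-DMb1 by 2.53, 2.24 and 2.25 fold, the first 2 by the gate itself.

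Gdf3, a ligand of the TGF-beta family, stood at 37.1 against 6.01 CPM in CD, 31.7 against 6.48 in HFD and 7.52 against 1.73 in WD, higher by 6.18-fold (4.18 to 9.11) in CD, 4.90-fold (2.96 to 8.08) in HFD, 4.35-fold (2.51 to 7.16) in WD. Its UMIs came from 18 members of CD, 16 of HFD and 5 of WD, so few cells carried it. Sirpb1a, a receptor of the signal-regulatory protein family, stood at 20.7 against 3.70 CPM in CD, 32.7 against 4.86 in HFD and 28.1 against 6.84 in WD. Gpr141, an orphan G protein-coupled receptor, stood at 21.4 against 6.41 CPM in CD, 64.4 against 5.94 in HFD and 118 against 30.9 in WD, with members above the other cells in each library. Sh2d1b1, an adapter of SLAM receptor signals, was 4.74, 3.0 and 6.55 times higher, and Clec2i, a C-type lectin-like ligand of natural killer receptors, 3.41, 4.01 and 2.82 times. Tnip3, which binds A20 and restrains NF-kB, stood at 106 against 35.2 CPM in CD, 26.9 against 8.46 in HFD and 488 against 175 in WD: the level differed widely between libraries while the ratios were 3.0, 3.18 and 2.79. Cells that missed the gate by Ear2 and Fn1 alone had more Tnip3 than members, at 250, 77 and 841 CPM. Matn2, Vill, Tspan33 and Plscr1 complete the 12 genes of the largest gaps, at 3.09, 2.80 and 3.34 fold for Matn2 and 3.45, 2.74 and 3.30 fold for Plscr1.

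Of 16 recruitment and adhesion receptors outside the gate, 4 were higher in all 3 libraries: Cd52, Cx3cr1, Itgax and Itga4. Against cells that differ in Ccr2 alone, 2 of 14 passed 1.5-fold in all 3 libraries, Itga4 and Cd44. In that comparison Cd52 was 1.44, 1.52 and 1.51 times higher and Cx3cr1 1.26, 1.42 and 1.27 times. Itgax was 1.62, 1.19 and 2.76 times higher. Cells that missed the gate by Ear2 and Fn1 alone had more Cd52 than members, at 2306, 2862 and 1343 CPM. They also had more Itgax, at 53.1, 42.4 and 75.7 CPM against 25.7, 13.5 and 35.6 in members. They had less Cx3cr1, at 182, 80.9 and 91.7 CPM, and Itga4 at 49, 73.2 and 272 CPM against 50.7, 71.1 and 301. Cx3cr1, the fractalkine receptor, stood at 306 against 157 CPM in CD, 314 against 133 in HFD and 206 against 87.5 in WD, higher by 1.94-fold (1.74 to 2.16) in CD, 2.36-fold (2.06 to 2.69) in HFD, 2.36-fold (2.15 to 2.58) in WD. Itgax, the CD11c integrin chain of dendritic cells and class II high macrophages, was higher by 2.19-fold (1.47 to 3.21) in CD, 1.74-fold (0.879 to 3.24) in HFD, 2.37-fold (1.88 to 2.94) in WD, where the HFD interval includes 1. Itga4, a chain of the VCAM1 receptor, was higher by 1.55-fold (1.18 to 2.01) in CD, 1.85-fold (1.40 to 2.42) in HFD, 1.59-fold (1.47 to 1.71) in WD. Of 15 monocyte genes, 3 were higher: Ms4a4c at 86.4 against 31.4 CPM in CD, 108 against 24.7 in HFD and 109 against 38.1 in WD, Emb at 136 against 51.7 CPM in CD, 190.3 against 44.3 in HFD and 118 against 56.1 in WD and Gngt2 at 156 against 84.2 CPM in CD, 159 against 74 in HFD and 112 against 36.6 in WD. Emb is embigin, an adhesion protein, and Ms4a4c a membrane protein of monocytes. Against cells that differ in Ccr2 alone, Gngt2 was 1.19, 1.08 and 1.42 times higher. Fcgr4, the activating receptor for IgG2 antibodies, was 2.55, 1.71 and 2.81 times higher and Fcgrt, the neonatal Fc receptor, 2.49, 2.90 and 2.78 times lower. Cd72, a lectin-like receptor, was 2.21, 1.60 and 2.95 times higher and Tmem119 1.91, 1.67 and 3.86 times.

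Ccl5 showed how few cells can carry a ratio. It stood at 50 against 15 CPM in CD, 48.1 against 6.30 in HFD and 108 against 41.9 in WD, which reads as 3.33, 7.63 and 2.58 fold higher in members. Its UMIs came from 8, 5 and 19 members, and a single member held 48.6%, 66% and 70.7% of them. With the gate on thinned cells the mean log2 ratio of Ccl5 turned to -0.57. None of the 14 inflammatory, 19 immediate early, 20 interferon, 12 glycolysis and 14 proliferation genes measured differed from the other cells by 1.5-fold the same way in all 3 libraries.

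**Figure D3:**
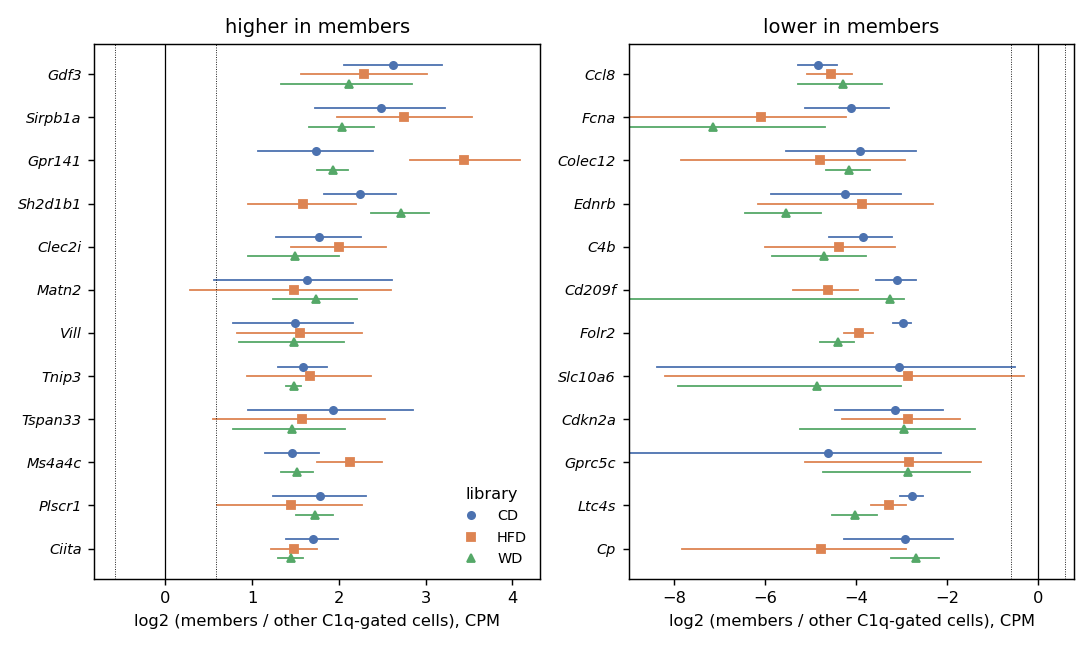
Log2 ratio of the summed CPM of members to that of the other C1q-gated cells (x axis) for the 12 genes highest and the 12 lowest in members outside the gate (y axis), in CD, HFD and WD. Lines are exact 95% intervals for counting error, ended at the edge of the panel, dotted lines mark 1.5-fold, and Cd209f in WD is a bound from 0 UMIs. The 3 libraries lie on the same side of 0 for each of the 24 genes.

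Timd4 and Lyve1 had no UMI on either side of the comparison with cells that differ in Ccr2 alone, and the contrast of class II was narrower. These cells met every other condition and had no Ccr2 UMI, with median class II shares of 6.6%, 9.25% and 3.72%. They were shallower, at a median of 2988, 2365 and 8962 UMIs, and since Ccr2 is captured in part, some of them will carry undetected Ccr2. Of 6176 genes, 72 (1.17%) were at least 1.5-fold higher in members in all 3 libraries, Ccr2 itself included, and 85 (1.38%) lower. Of 14 monocyte genes, 9 were higher and 0 lower, at median log2 ratios of 1.23, 1.33 and 2.09, beside -0.01, -0.05 and 0.05 over all genes. Of 7 dendritic cell genes, 2 were higher and 0 lower: Cd209a, a C-type lectin, by 2.19-fold (1.19 to 4.21) in CD, 6.21-fold (3.76 to 10.7) in HFD, 6.23-fold (4.01 to 9.98) in WD, and Tnip3 by 5.83, 5.02 and 2.52 fold. Cd209a UMIs came from 10, 18 and 15 members. Against all other C1q-gated cells, Cd209a stood at 26.4 against 41.2 CPM in CD, 74 against 65.1 in HFD and 34.4 against 42.3 in WD. Of 9 dendritic cell genes in that contrast, Tnip3 was higher and Fscn1 lower in all 3 libraries. Cells that missed the gate by Ear2 and Fn1 alone had Cd209a at 139, 231 and 136 CPM. The genes named from the comparison with cells that differ in Ccr2 alone and not named above were chosen after their values were seen.

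S100a6, a calcium-binding protein, stood at 927 against 248 CPM in CD, 1062 against 208 in HFD and 468 against 115 in WD, higher by 3.74-fold (3.31 to 4.24) in CD, 5.11-fold (4.52 to 5.77) in HFD, 4.06-fold (3.67 to 4.50) in WD. S100a4 stood at 376 against 108 CPM in CD, 342 against 91.2 in HFD and 410.3 against 53.2 in WD. Emb stood at 136 against 34.7 CPM in CD, 190.3 against 44.1 in HFD and 118 against 25.2 in WD, and Ms4a4c at 86.4 against 20.4 CPM in CD, 108 against 28.6 in HFD and 109 against 24.4 in WD, with folds of 3.91, 4.31 and 4.70 and 4.24, 3.76 and 4.48. Lyz1, a lysozyme, stood at 278 against 56.6 CPM in CD, 601 against 185 in HFD and 67.3 against 11.3 in WD, and Napsa, an aspartic protease, at 44.3 against 14.3 CPM in CD, 69.2 against 10.1 in HFD and 59 against 7.57 in WD. Plac8, a gene of classical monocytes, stood at 87.1 against 29.4 CPM in CD, 37.5 against 0.596 in HFD and 109 against 3.89 in WD. Its fold in HFD rests on a value near the floor and has an interval of 10.6 to 2547. Plac8 UMIs came from 13, 10 and 16 members, so it marks a small fraction of them. S100a6 and Emb were broader, found in 70.4% and 36.7% of CD members. Gpr141 gave the largest gap after Ccr2, judged by its smallest ratio in the 3 libraries, at 7.09-fold (2.50 to 27.7) in CD, 10.8-fold (5.53 to 23.6) in HFD, 9.45-fold (7.15 to 12.7) in WD. The signal-regulatory protein genes Sirpb1a, Sirpb1b and Sirpb1c were higher by 3.43, 4.57 and 13.7, by 13.9, 5.48 and 4.11 and by 4.11, 7.43 and 7.27 fold. They lie in a family of near-identical genes, so reads may be split or lost between them. Retnla, a secreted protein of alternatively activated macrophages, stood at 1258 against 259.7 CPM in CD, 1464 against 586 in HFD and 279 against 51 in WD. From the proliferation list Mcm6, Stmn1 and Cdk1 passed, 3 of 14, and Pclaf, which binds the replication clamp, was 3.74, 5.18 and 5.46 times higher. For Cdk1 the intervals include 1 in HFD (0.955 to 3.23) and WD (0.906 to 2.62). Stmn1 was found in 10.2%, 9.29% and 6.84% of members thinned to 1000 UMIs.

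Of 15 resident genes, 8 were lower in members than in these neighbours and 0 higher, though neither set had a UMI of Timd4 or Lyve1. Folr2 stood at 156 against 445 CPM in CD, 82.7 against 419 in HFD and 23.7 against 46.9 in WD, lower by 2.86-fold (2.44 to 3.35) in CD, 5.07-fold (4.05 to 6.42) in HFD, 1.97-fold (1.48 to 2.67) in WD. Ccl8 stood at 33.6 against 437 CPM in CD, 33.6 against 315 in HFD and 4.35 against 16.2 in WD, C4b at 13.6 against 104 CPM in CD, 4.81 against 47.7 in HFD and 3.56 against 15.6 in WD and Cd163 at 65.7 against 156 CPM in CD, 50.9 against 136 in HFD and 139 against 295 in WD. Pla2g2d, a secreted phospholipase that makes anti-inflammatory lipids, stood at 24.3 against 144 CPM in CD, 6.73 against 124 in HFD and 2.37 against 18.6 in WD. Vcam1, an adhesion molecule, was 4.0, 4.78 and 2.65 times lower. Cd207, the lectin langerin, was 7.79, 8.89 and 1.90 times lower, and in members its UMIs came from 5, 3 and 6 cells. Of 4 class II chains outside the gate 1 was higher, H2-DMb2 by 1.82, 1.71 and 2.15 fold, and the medians of the list were 0.70, 0.41 and 0.41. The CD interval of H2-DMb2, 0.924 to 3.76, includes 1. The regulators gave 0 of 10 genes higher, and Ciita stood at 1.92, 1.74 and 1.34 times the level of the cells without Ccr2. For some genes the direction differed between the comparisons. Cfp, Ccl6 and Tmem119 had mean log2 ratios of -1.001, -0.89 and 1.20 against all other cells and of 0.63, 0.36 and -0.47 here. Fcgr4 moved from 1.20 to -0.03. Plac8 in CD and Lyz1 in WD, higher here, were lower against all other C1q-gated cells. They stood at 87.1 against 136 CPM and 67.3 against 96.3 CPM there, while in the remaining libraries both genes were higher.

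**Figure D4:**
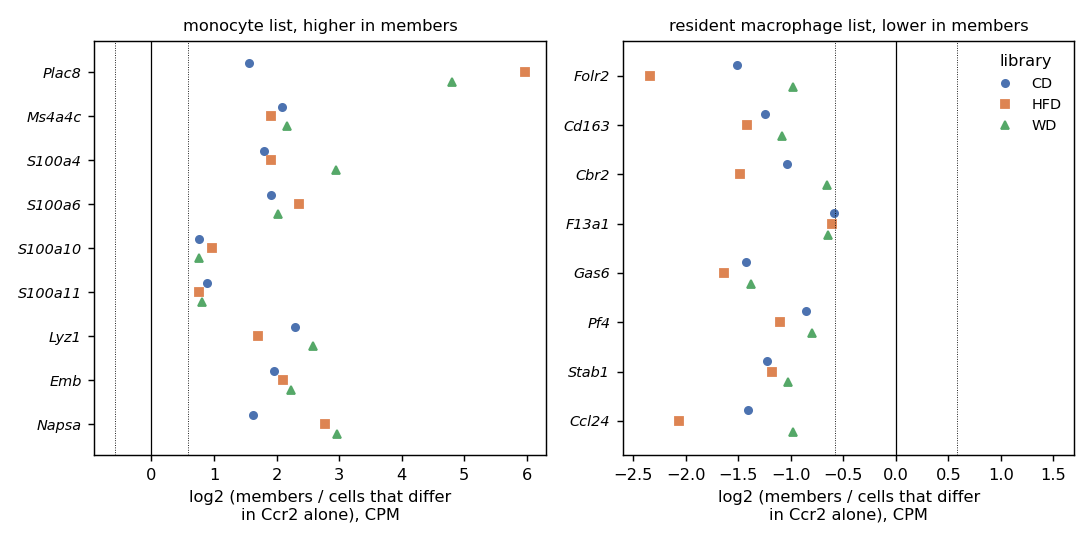
Log2 ratio of the summed CPM of members to that of cells that differ in Ccr2 alone (x axis), in CD, HFD and WD, for the 9 monocyte genes higher (left) and the 8 resident genes lower (right) by 1.5-fold or more in all 3 libraries. Dotted lines mark 1.5-fold. Plac8 has the widest spread between libraries, and F13a1 lies nearest the line.

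Markers of T and NK cells were at or near 0 in members of CD and HFD, while neutrophil and heart muscle transcripts were measurable. Of the conventional dendritic cell markers, Xcr1 and Ccr7 were at 0 in all 3 libraries, and the 11 markers summed to 55.7, 95.1 and 127 CPM in CD, HFD and WD, against 79.7, 87.6 and 106 in the other C1q-gated cells. T cell markers summed to 0.714, 0 and 5.14 CPM. NK cell markers summed to 0, 0 and 70.4 CPM, with all 5 at 0 in CD and HFD. The B cell markers Cd79a and Ms4a1 were at 0 in each library, though the list of 5 summed to 361, 329 and 132 CPM, against 352, 274 and 118 in the other cells. Classical monocyte markers outside the gate summed to 207, 158 and 305 CPM, against 252, 33.8 and 193 in the other cells. Neutrophil markers summed to 525, 15.4 and 741 CPM in members and 855, 141 and 1222 in the other cells. Heart muscle transcripts summed to 284, 356 and 192 CPM, against 145, 407 and 229, and the part of these transcripts in the ratios above was not tested. The macrophage markers were present in members at lower sums than in the other cells: the 9 macrophage markers outside C1q summed to 17873, 15398 and 9362 CPM in members, against 30047, 33724 and 16979. A Cd52 UMI was found in 94.8%, 96.1% and 98.9% of members. Thinned to 1000 UMIs, it was in 71.3%, 77.1% and 53.2% of members and 1.52%, 1.36% and 0% of stromal cells.

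Members varied among themselves in a few genes far beyond the rest. Over 1513 genes, the median ratio of variance to mean in members thinned to 1000 UMIs was 1.05, 1.04 and 1.06, where 1 is what counting alone gives. By mean rank over the libraries Retnla led, at 29.6, 18.2 and 6.61. The 32 CD, 28 HFD and 19 WD members with the most Retnla held 95.2%, 95.2% and 93.2% of its UMIs, and 15.4%, 15.7% and 5.79% of thinned members had any, beside 4.04%, 5.15% and 2.78% of C1q-poor stromal cells. Retnla thus separated a small set of high members from the rest in each library. Apoe followed at 21.5, 17.8 and 8.43, but was spread over most cells, found in 83%, 86.4% and 81.1% of thinned members. Lyz2, Plac8, Ccl12, Cxcl2, Ccl4, Il1b and Lyz1 were also among the 20 most variable genes outside the gate. Plac8 was found in 2.47%, 2.50% and 2.11% of thinned members. Markers of cell division were found, with 3 or more UMIs of the proliferation list, in 10.8%, 11.1% and 5.79% of thinned members, beside 9.85%, 6.45% and 5.19% of the other cells and with overlapping 95% intervals in all 3 libraries.

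Between the diets, HFD members had much lower levels of stress, chemokine and cytokine transcripts than CD members, and slightly higher levels of class II transcripts. Of 6244 genes with at least 30 UMIs in members of both libraries together, 350 (5.61%) had a ratio of 1.5 or more in favour of HFD and 772 (12.4%) in favour of CD. For the lists and most named genes, values of the other C1q-gated cells of the same libraries stand beside those of members. All 19 immediate early genes, which respond to stimulation within minutes, were at least 1.5-fold lower in HFD members, at a median log2 ratio of -2.10, and 16 of them were so in the other cells, at -1.59. Over all genes measured the medians were -0.07 in members and -0.03 in the other cells.

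Fos stood at 2033 CPM in CD and 319 in HFD in members and at 1622 and 497 in the other cells. In HFD it was 6.37-fold lower (5.69 to 7.16) in members and 3.26-fold lower (3.13 to 3.40) in the other cells. Junb was 5.15-fold lower (4.58 to 5.81) in members and 3.0-fold lower (2.87 to 3.14) in the other cells. The heat shock gene Hspa1a was 6.17-fold lower (5.11 to 7.50) in members and 3.76-fold lower (3.50 to 4.04) in the other cells. Ier3, an early response gene that limits apoptosis, stood at 283 CPM in CD and 20.2 in HFD (other cells 302 and 67.8), and Gadd45b, a stress sensor, at 139 CPM in CD and 5.77 in HFD (other cells 120.1 and 9.36). Ppp1r15a, which ends the integrated stress response, stood at 228 CPM in CD and 16.3 in HFD (other cells 176 and 26.1). Slc7a11, the cystine carrier, had 57 UMIs in CD members and none in HFD. A Fos UMI was found in 59.3% of CD and 17.9% of HFD members thinned to 1000 UMIs, and in 23.2% and 2.71% of C1q-poor stromal cells. In barcodes of 10 to 100 UMIs, which hold free RNA, Fos stood at 575 CPM in CD and 137 in HFD. The lower level in HFD was therefore seen in stromal cells and near-empty barcodes too, and the part of free RNA in the members' values was not tested.

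Chemokines of neutrophils and inflammatory cells went the same way, with 8 of 15 at least 1.5-fold lower and 1 higher in HFD members, and 8 lower in the other cells. Cxcl2, which draws neutrophils, stood at 1777 CPM in CD and 48.1 in HFD in members, 37-fold lower (28 to 50), and at 1139 and 77.6 CPM in the other cells. Its UMIs came from 164 of 324 CD members and from 7 of 280 HFD members. Ccl3, a chemokine of inflammatory macrophages, stood at 206 CPM in CD and 4.81 in HFD (other cells 164 and 13.7), and Ccl4 at 352 CPM in CD and 52.9 in HFD (other cells 265 and 45). Cxcl10, induced by interferons, was 11.3-fold lower (4.21 to 42.9), and 3.53-fold lower (2.52 to 5.06) in the other cells. Of 12 cytokine and NF-kB feedback genes, 8 were lower in members and 7 in the other cells. Tnf stood at 58.5 CPM in CD and 0.961 in HFD (other cells 36.6 and 6.84), with 52 members carrying it in CD and 1 in HFD. Il1b stood at 184 CPM in CD and 59.6 in HFD (other cells 168 and 77.9) and Nfkbia, the inhibitor of NF-kB, at 723 CPM in CD and 124 in HFD (other cells 579.9 and 195). In near-empty barcodes Cxcl2 stood at 402 CPM in CD and 25.5 in HFD. WD members had 2787 CPM of Cxcl2, 1261 of Il1b and 103 of Tnf, levels that cannot be set against the others for the reasons above.

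S100a8 and S100a9, abundant proteins of neutrophils, had the largest gaps. S100a8 stood at 286 CPM in CD and 0.961 in HFD in members and at 501 and 70.7 CPM in the other cells, and S100a9 at 171 CPM in CD and 0.961 in HFD in members. The HFD members held 1 UMI of each, so the fold rests on a single count: 297-fold lower (53 to 11767) for S100a8. In CD the UMIs of S100a8 came from 20 members, and 26 carried S100a8 or S100a9. Retnlg, another neutrophil gene, had 66 UMIs in CD members and none in HFD. With cells that carry S100a8 or S100a9 left out, a setting added after the data were seen, the log2 ratio of Cxcl2 was -5.06, beside -5.21 with them. Neutrophil markers summed to 525 CPM in CD and 15.4 in HFD members, and beyond this setting their part in the other differences was not tested.

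Of 16 lipid-associated genes, 10 were at least 1.5-fold lower and 0 higher in HFD members, and 7 lower and 1 higher in the other cells. Lpl, the lipoprotein lipase, stood at 338 CPM in CD and 96.1 in HFD, 3.51-fold lower (2.83 to 4.41) against 2.17-fold lower (1.97 to 2.38) in the other cells, and Cd36, a fatty acid receptor, at 303 CPM in CD and 144 in HFD (other cells 472 and 272). Spp1, osteopontin, stood at 461 CPM in CD and 45.2 in HFD (other cells 170.5 and 93.7), but a single CD member held 50.1% of its 645 UMIs. Gpnmb, a glycoprotein of lipid-laden macrophages, was carried by 6 CD and 2 HFD members. Fabp5 and Spp1 also turned direction under another setting, given under the dependence on processing. Of 9 costimulation genes 5 were lower in members and 3 in the other cells, among them Cd86, a ligand of CD28, at 179.9 CPM in CD and 101 in HFD and 1.78-fold lower (1.41 to 2.26) in members, against 169 and 134 CPM in the other cells. Cd83 was 1.74-fold lower (1.45 to 2.10) in members, and in the other cells stood at 252 and 254 CPM. Resident genes, low in members of both diets, were lower still in HFD for 7 of 16, against 1 in the other cells, with Folr2 at 156 CPM in CD and 82.7 in HFD. In the other cells Folr2 stood at 1227 and 1271 CPM.

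Class II transcripts leaned the other way. H2-Aa stood at 14406 CPM in CD and 18932 in HFD in members, 1.31-fold higher (1.29 to 1.34), and Cd74 at 47198 CPM in CD and 61366 in HFD, 1.30-fold higher (1.29 to 1.31). These ratios stayed under 1.5-fold, in genes whose lowest level the gate sets. In the other C1q-gated cells, H2-Aa was 1.77-fold higher (1.75 to 1.79) and Cd74 1.64-fold higher (1.63 to 1.65), so the members' difference was the smaller one. Of 8 class II chains, those of the gate included, 2 passed 1.5-fold upward in members and 6 in the other cells. H2-DMb1 stood at 960.3 CPM in CD and 1481 in HFD and was 1.54-fold higher (1.43 to 1.66) in members and 1.74-fold higher (1.67 to 1.83) in the other cells. Ciita stood at 95.7 CPM in CD and 175 in HFD and was 1.83-fold higher (1.45 to 2.30) in members and 2.11-fold higher (1.81 to 2.48) in the other cells. Gbp3, a guanylate-binding protein induced by interferon gamma, stood at 28.6 CPM in CD and 89.4 in HFD (other cells 25.6 and 53.3), and Irf7, of the type I response, at 84.3 CPM in CD and 45.2 in HFD (other cells 56.5 and 38.1), so the interferon list split, with 4 genes higher and 6 lower of 19, against 6 and 1 in the other cells.

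A few further genes were higher in HFD members. Lyz1 stood at 278 CPM in CD and 601 in HFD in members, 2.16-fold higher (1.90 to 2.46), and at 261 and 326 CPM in the other cells. Gpr141, already high in members, stood at 21.4 CPM in CD and 64.4 in HFD, while the other cells had 6.41 and 5.94 CPM. Aqp1, a water channel of endothelium, stood at 1.43 CPM in CD and 37.5 in HFD in members and 18.7 and 56.1 CPM in the other cells, and endothelial markers summed to 295 CPM in CD and 379 in HFD members. The part of endothelial RNA was not tested. The transcripts AY036118, Gm47283 and Gm42418 were 6.46, 3.06 and 2.68 times higher in members and 3.98, 2.55 and 2.73 times in the other cells. Arl10, Atad2b and F630028O10Rik complete the 10 highest.

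**Figure D5:**
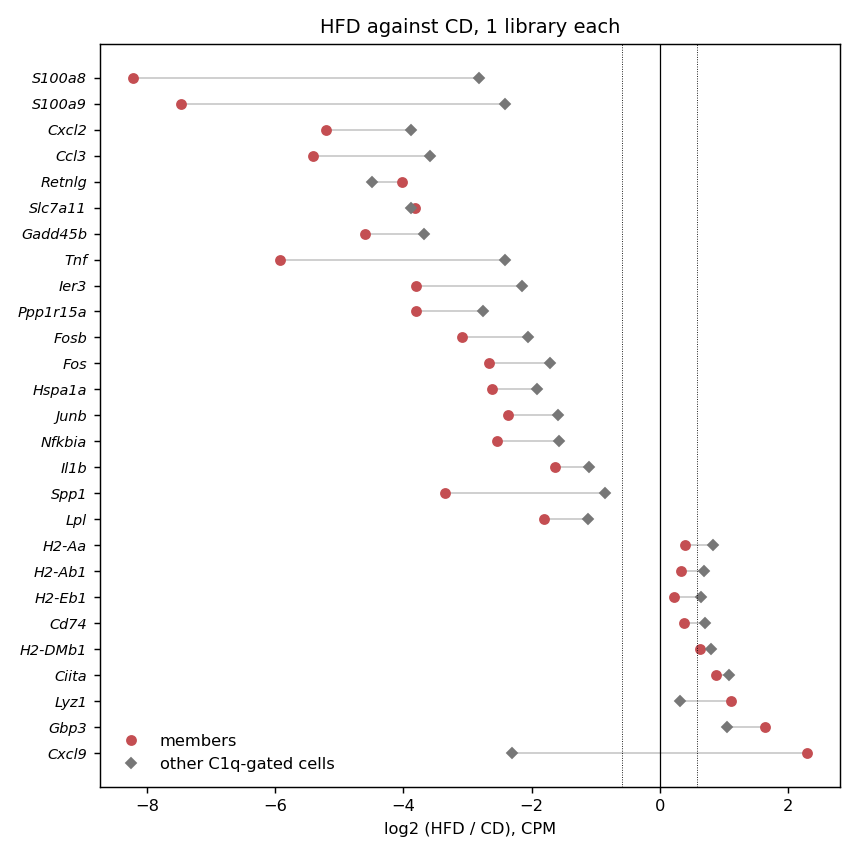
Log2 ratio of HFD to CD in summed CPM (x axis) for genes named in the text (y axis), in members (circles) and in the other C1q-gated cells (diamonds), 1 library each. Dotted lines mark 1.5-fold. The chemokine, immediate early and NF-kB genes lie to the left in both sets, the class II genes to the right in both, and Cxcl9 on opposite sides. Retnlg and Slc7a11 in members are bounds from 0 UMIs in HFD.

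Between WD and CD members, 43.2% of 8504 genes were at least 1.5-fold higher in WD and 29.5% lower, and 45.5% and 26.4% of 8207 genes in WD against HFD. Slc8a1, a sodium and calcium exchanger, stood at 876 CPM in WD and 1.43 in CD members, and at 680.2 and 0.901 in the other cells. Il1b in WD stood at 1261 against 777 CPM, members against other cells, beside 184 against 168 in CD and 59.6 against 77.9 in HFD.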

How the data were processed

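Transcripts were counted per cell barcode in 3 libraries of sorted heart macrophages, 1 per diet. The deposited matrices hold raw counts of UMIs per gene, not normalized; the software was version 7.2.0 in WD and 3.0.1 in both other libraries, per the file headers. The build GRCm38 and Seurat are named in the submitters' processing notes, without a role. The libraries held 17464149, 16630481 and 79269380 UMIs in CD, HFD and WD.

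The gate, the members and the gene lists were chosen with earlier results of these data known. UMIs of members were summed per library over the 30406 genes shared by the files and scaled to CPM. Ratios carry exact conditional 95% intervals, shares exact Clopper-Pearson ones; both cover counting error only. A count of 0 was set to a floor of 3 counts over the set. A gene was called at 1.5-fold, given 30 UMIs or more over the sets compared. Named genes were the 12 each way with the largest ratio against other cells, judged by the smallest of the 3 libraries, the 10 each way between diets by the interval bound nearest to 1, and up to 5 called genes per list. Members thinned to 1000 UMIs set shares at equal depth (seed 1). C1q-poor stromal cells had endothelial or fibroblast markers at 0.3% of UMIs or more. Doublets were removed only by the sort gates named in the labels' protocols and, here, in an alternative. The calling of ratios was tested on simulated sums that hold counting error and no spread between cells. That test cannot check the intervals of genes carried by few cells. Alternatives were the depth, mitochondrial, C1q, Ccr2 and class II limits, thinning, other comparators and gene filters. Tools: python 3.11.15, numpy 2.4.6, scipy 1.17.1, pandas 2.3.3, scikit-learn 1.9.0, matplotlib 3.10.9.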

Additional observations from a re-analysis of the deposited data

Results flagged for a closer look

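The log2 ratio of HFD to CD had opposite signs in members and in the other C1q-gated cells for 3 genes, which were picked out on that ground alone; the difference was not tested. Cxcl9, an interferon gamma induced chemokine, was at 2.29 in members and -2.31 in the other cells, and its UMIs in members came from 4 CD and 3 HFD cells, with 78.6% and 56.9% in a single cell. Napsa was at 0.64 in members and -0.98 in the other cells, with 44.3 CPM in CD and 69.2 in HFD in members and 40.7 and 20.7 CPM in the other cells. Cd209f was at -0.89 in members and 0.62 in the other cells, from 45 and 18 UMIs in CD and HFD members.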

How the results depend on the processing

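The 3 libraries allow no estimate of the spread between mice, and intervals cover counting alone. Share of C1q-gated cells in CD, HFD and WD: 10.7%, 9.69% and 2.97% with the gate on cells thinned to 1000 UMIs, and 9.86%, 9.79% and 3.85% with Ccr2 at 2 UMIs or more. CD and HFD stood at 14.5% and 15.9% with a minimum of 2000 UMIs. With mitochondrial UMIs at most 5%, CD, HFD and WD stood at 14.2%, 17.3% and 5.96%. Without cells with 2 or more UMIs of other cell types' markers, they stood at 15.1%, 11.1% and 3.27%. HFD thus lay above CD under the mitochondrial limit and below CD without marker-bearing cells. WD stood at 2.78% with C1q at 1% or more.

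Counts of genes at 1.5-fold moved under settings of several kinds. Leaving out marker-bearing cells kept 88, 93 and 20 members in CD, HFD and WD. Against other cells, 5146 genes were then measured in place of 8893, and 5391 with thinned cells. C1q at 1% or more kept 30 WD members. The counts below thus rest on unlike numbers of cells and genes. Higher in members against other cells were 39 without marker-bearing cells, 61 with thinned cells, 76 for genes of 100 UMIs or more, 263 for genes of 1 UMI or more, 72 against cells that differ in Ccr2 alone and 202 without the WD library. Lower were 244 with the gate on thinned cells, 181 without marker-bearing cells, 234 with thinned cells, 231 at 100 UMIs, 85 against cells that differ in Ccr2 alone and 676 without the WD library. For HFD against CD, higher and lower were 138 and 324 without marker-bearing cells, 145 and 351 thinned, 57 and 232 at 100 UMIs, 1464 and 1971 at 1 UMI, and 166 and 452 with an interval clear of 1. For WD against CD they were 781 and 816, 944 and 918, and 2290 and 1464 under the first 3 of these, with 3864 lower at 1 UMI and 2029 higher with C1q at 1%. For WD against HFD they were 776 and 714, 915 and 773, and 2294 and 1219, with 3573 lower at 1 UMI and 1896 higher and 1286 lower with C1q at 1%.

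Among the genes followed across settings, log2 ratios turned sign for Cfp (0.63), Fcgr4 (-0.033), Ccl6 (0.36) and Tmem119 (-0.47) against cells that differ in Ccr2 alone, and for Ccl5 (-0.57) with the gate on thinned cells. Between HFD and CD they turned for Spp1 (0.49, gate on thinned cells), Fabp5 (1.62, Ccr2 at 2 UMIs or more) and Ube2c (0.22, C1q at 1% or more). The cause was not tested. Of 814 values for 63 genes against other cells, 648 moved by less than the standard deviation of the 3 libraries' log2 ratios, and 161 moved further. Of 910 for 76 genes between HFD and CD, 827 stayed within the interval for counting error and 80 moved out of it. The settings without S100a8 or S100a9 cells and without WD were chosen after seeing the data. No paired analysis was possible because each diet has 1 library.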

Other observations

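Cells that missed the gate by one condition differed from members in other genes too, which is given as values without a test. Cells kept out by Timd4 or Lyve1 alone had Folr2 at 1014, 854 and 351 CPM in CD, HFD and WD, against 156, 82.7 and 23.7 in members. They had Ms4a4c at 40.3, 80.2 and 78.8 CPM, against 86.4, 108 and 109. Cells kept out by Ear2 and Fn1 alone had Folr2 at 62.6, 34.7 and 13.4 CPM and Ms4a4c at 47.6, 92.4 and 76.6 CPM. Other monocyte genes did not all follow Ms4a4c. Lyz1 stood at 981, 1906 and 430 CPM in these cells, against 278, 601 and 67.3 in members. Emb stood at 195, 231 and 264 CPM, against 136, 190 and 118. Napsa stood at 196, 177 and 57 CPM, against 44.3, 69.2 and 59. Plac8 stood at 329, 23.1 and 45.4 CPM, against 87.1, 37.5 and 109. Apoe stood at 4673, 5931 and 2326 CPM in these cells, against 12979, 11476 and 4977 in members. Their median Ccr2 count was 4, 4 and 10 UMIs, against 2, 2 and 3 in members, at median depths of 7287, 5584 and 18762 UMIs.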
